A study of Mus musculus with 9 samples.

Results

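The genes of the major histocompatibility complex (MHC, called H2 in the mouse) and of antigen processing were followed in right ventricle RNA of male mice measured on Affymetrix whole-transcript arrays. The members were all genes whose symbol in the deposited annotation starts with H2-, together with B2m, Tap1, Tap2, Tapbp, Tapbpl, Psmb8, Psmb9, Psmb10, Psme1, Psme2, Cd74, Ciita, Nlrc5, Erap1 and Ctss. They came to 54 of 22088 measured genes, and 44 of the 54 were annotated on chromosome 17. There were 28 class I MHC genes, 9 class II MHC genes, 6 genes of the class I light chain, peptide transport and loading, 5 of the immunoproteasome and its activator, the class II partners Cd74 and Ctss, the transactivators Nlrc5 and Ciita, and 2 genes that only carry an H2- symbol (H2-Ke2 and H2-Ke6). Each gene was read from its probe set with the highest mean, as a log2 signal on which 1 unit is a doubling.

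The labels give 3 groups of 3 arrays: Lrat-/- on a diet deficient in vitamin A, Lrat-/- on a diet with sufficient vitamin A, and wild type on that sufficient diet. The sufficient diet contained 250000 U/kg of retinol palmitate and the deficient diet had none added, and both were fed for 50 days. Lrat encodes lecithin retinol acyltransferase, which makes the retinyl esters in which vitamin A is stored. No label says that the samples of a group were separate animals, so the spread behind each p-value is that of these samples and may be technical, and the number of arrays limits the precision.

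Class I molecules show peptides made inside a cell to cytotoxic T cells and are carried by nearly all nucleated cells. Proteasomes cut the peptides, the Tap1/Tap2 transporter moves them into the endoplasmic reticulum, and tapasin helps to load them onto a heavy chain paired with beta-2 microglobulin. Class II molecules show peptides from the lysosomal route to helper T cells and are found mainly on macrophages, dendritic cells and B cells. Interferon gamma induces both sets of genes, class I through the coactivator Nlrc5 and class II through Ciita, which act with promoter elements known as the X and Y boxes. In the heart these genes are read from resident macrophages, endothelium, fibroblasts and myocytes together, so in whole-tissue RNA fewer cells of a type and less RNA per cell cannot be told apart.

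Promoters of 5 members are shown because they carry the elements through which this family is known to be controlled, and because the class I examples resemble each other. Each sequence is the 250 bases before the most downstream annotated start, from RefSeq (build GRCm38.p6), written in the direction of the gene. Capitals mark matches on either strand to the GAS element TTCNNNGAA, the interferon-stimulated response element (ISRE; GAAA, any 2 bases, GAAA), the Y box ATTGG, the X2 core TGACG or the kappaB element. Overlapping matches run together in capitals. H2-K1 (chr17:34000334-34000583, minus strand) and H2-Q6 (chr17:35424600-35424849, plus strand) are class I heavy chains, B2m (chr2:122147437-122147686, plus strand) is their light chain, Tap1 (chr17:34187306-34187555, plus strand) is a transporter subunit and H2-Aa (chr17:34287824-34288073, minus strand) is a class II alpha chain.
H2-K1: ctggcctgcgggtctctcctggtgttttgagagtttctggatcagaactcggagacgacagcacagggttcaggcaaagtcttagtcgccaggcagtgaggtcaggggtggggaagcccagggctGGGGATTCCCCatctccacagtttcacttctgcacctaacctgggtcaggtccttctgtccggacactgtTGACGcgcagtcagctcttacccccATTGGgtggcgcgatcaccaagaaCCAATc
H2-Q6: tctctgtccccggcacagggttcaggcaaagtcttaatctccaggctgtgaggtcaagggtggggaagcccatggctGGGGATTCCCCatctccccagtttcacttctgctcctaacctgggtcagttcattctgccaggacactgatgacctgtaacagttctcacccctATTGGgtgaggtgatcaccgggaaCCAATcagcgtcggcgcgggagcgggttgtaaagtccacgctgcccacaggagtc
B2m: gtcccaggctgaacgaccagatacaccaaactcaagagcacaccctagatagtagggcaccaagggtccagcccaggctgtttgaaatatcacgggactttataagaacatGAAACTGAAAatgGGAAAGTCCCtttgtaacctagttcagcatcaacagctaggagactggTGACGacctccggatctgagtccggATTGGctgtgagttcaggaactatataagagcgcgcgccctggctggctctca
Tap1: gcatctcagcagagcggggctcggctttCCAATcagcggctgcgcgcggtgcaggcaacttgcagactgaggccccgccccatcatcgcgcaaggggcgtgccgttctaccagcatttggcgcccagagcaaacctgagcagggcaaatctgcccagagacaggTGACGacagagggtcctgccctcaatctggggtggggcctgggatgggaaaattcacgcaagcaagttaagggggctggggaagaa
H2-Aa: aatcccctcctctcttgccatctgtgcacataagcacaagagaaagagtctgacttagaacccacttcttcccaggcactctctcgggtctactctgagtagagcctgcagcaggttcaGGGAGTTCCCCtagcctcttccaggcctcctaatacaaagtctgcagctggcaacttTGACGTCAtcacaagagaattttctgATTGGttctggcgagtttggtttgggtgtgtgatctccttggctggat

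A promoter window of 300 bases, from 250 before to 50 after a start, was found for 42 of the 54 members and for 27025 genes in all. The Y box letters stood in 20 of 23 class I windows (87%) and in 7 of 7 class II windows, against 41.1% of all genes. The kappaB element stood in 8 of 23 class I windows (34.8%) and 1 of 7 class II windows (14.3%), against 9.55% of all genes. The X2 core was in 11 of 23 class I windows (47.8%) and 1 of 7 class II windows (14.3%), against 23% of all genes. The ISRE was in 3 of the 23 class I windows (13%) and 0 of 7 class II windows, against 3.99% of all genes. The GAS element was in 3 (13%) and 1 (14.3%), against 9.55%. Within class I, the ISRE letters were found in 3 of 11 genes outside the M region (27.3%) and in 0 of 12 M-region genes. The kappaB letters were in 6 of 11 (54.5%) and 2 of 12 (16.7%). The Y box letters ran the other way, in 9 of 11 (81.8%) and 11 of 12 (91.7%). So did the X2 core, in 5 of 11 (45.5%) and 6 of 12 (50%), and the GAS element, in 1 of 11 (9.09%) and 2 of 12 (16.7%). Psmb9 lies head to head with Tap1, and their windows share 275 bases. The windows of H2-K1 and H2-Q6 were identical at 67% of the bases in a global alignment. The same alignment gave 43.7% for H2-K1 with H2-T22 and 57.0% with H2-M3. H2-K1 has 2 windows, and the first listed was aligned, which need not be the one printed above. These are matches of letters and not shown to be bound sites.

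The level of the members spanned the range of the array. B2m was the brightest, with a 9-array mean of 12.51, followed by Psme1 at 11.01, H2-Q7 at 10.56, H2-D1 at 10.53, Cd74 at 10.47 and Tapbp at 10.16. Class II chains H2-Aa (9.98) and H2-Ab1 (9.93) were bright too. The negative-control probe sets had medians between 5.29 and 5.69 in the 9 arrays, and 21 of 28 class I genes and 8 of 9 class II genes had a mean above the average of those medians. The class I genes under it were H2-M1, H2-M2, H2-M10.1, H2-M10.5, H2-M10.6, H2-M11 and H2-Q10, and the class II gene was H2-Ea. Signals of different probe sets depend on their probes as well as on RNA, so this order describes signal and not transcript number. Near-identical class I genes can be read by each other's probes, so the values of the K, D, Q and T genes are uncertain as to the single gene. The annotation marks no member probe set as cross-hybridizing.

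The arrays as a whole set some limits. Lrat itself had a log2 signal of 7.58 to 7.81 in deficient-diet arrays labelled Lrat-/-, 7.64 to 8.09 in those on the sufficient diet and 6.24 to 6.43 in wild-type arrays. The signal thus runs against a simple loss of the transcript. Where its probes lie relative to the deleted part is not given in the sources used here, so it does not check the labels, and every direction below rests on the labels. Wild-type array 2 had the lowest negative-control median, 5.29, against 5.52 to 5.69 in the other 8 arrays. The cardiomyocyte markers had a mean log2 signal between 12.81 and 13.06 in every array, so the labelled heart tissue carries its defining markers.

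The genotype comparison asks what differs between arrays labelled Lrat-/- and wild type on the same sufficient diet. Most members had a lower signal in the arrays labelled Lrat-/-, class I and class II alike, but no member passed the test across all genes. The mean log2 signal of the 28 class I genes was 6.84, 6.85 and 6.77 in sufficient-diet arrays labelled Lrat-/- and 6.89, 7.30 and 7.18 in wild-type arrays. The mean of the 9 class II genes was 7.44, 7.59 and 7.37 in arrays labelled Lrat-/- and 7.59, 7.92 and 7.76 in wild type. In both classes wild-type arrays 2 and 3 stood above every array labelled Lrat-/- and wild-type array 1 lay close to them.

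By limma with Benjamini-Hochberg adjustment over 22088 genes, 0 of 54 members were called at an adjusted p under 0.05, and 8 genes in all (0.0362%). At an unadjusted p under 0.05, 20 of 54 members were lower in arrays labelled Lrat-/-, against 3% of all genes, and 0 were higher, against 2.71%. In 10 of 54 members every sufficient-diet array labelled Lrat-/- was below every wild-type array, against 4.02% of all genes, and in 0 above, against 3.67%. A lower mean by any amount was seen in 44 of 54, against 49%. The median log2 difference was -0.14 over the class I genes and -0.21 over the class II genes, while that over all genes was 0.00. In the authors' deposited table, whose analysis of variance has scan date as a factor, 10 of 54 members had a p under 0.05 and a ratio under 1, against 3.75% of all genes, and 1 (H2-Ke2) had a ratio over 1, against 3.9%.

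Without wild-type array 2, 44 of 54 members were still lower, against 49.8% of all genes, with medians of -0.14 for class I and -0.18 for class II. In that fit 9 members were lower at an unadjusted p under 0.05, against 2.53%. Leaving out array 3 of the sufficient group labelled Lrat-/- also gave 9, against 2.33%, and leaving out its array 1 gave 13, against 2.16%. Taken one wild-type array at a time against all 6 arrays labelled Lrat-/-, array 1 was above all 6 for 5 of 54 members (16.1% of all genes), array 2 for 31 (20.4%) and array 3 for 39 (23%). Array 1 was within the range of the 6 for 44 of 54 members, against 66.8% of all genes. The class I mean had an SD of 0.01 in deficient-diet arrays labelled Lrat-/-, 0.04 in those on the sufficient diet and 0.21 in wild type (n = 3 each).

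Same-numbered arrays of the 3 groups deviated together, so the difference was also taken number by number. The class I mean in the sufficient-diet array labelled Lrat-/- minus that in wild type was -0.06 for number 1, -0.45 for number 2 and -0.41 for number 3. The class II difference was -0.15, -0.33 and -0.39 in the same order. All 3 pairs ran the same way in both classes, and the pair numbered 1 was the smallest.

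**Figure D1:**
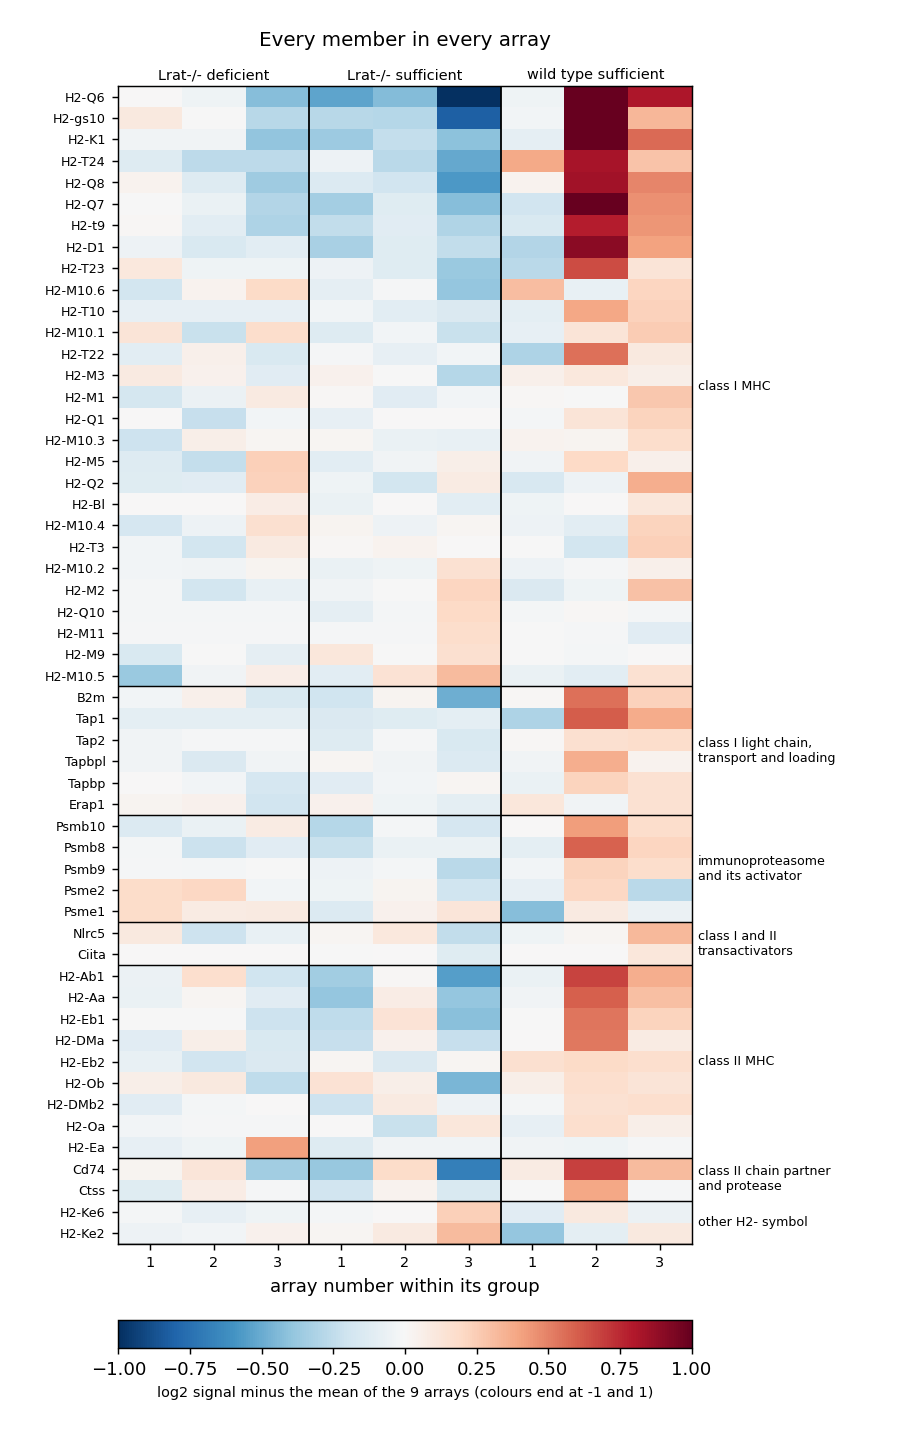
Every member in every array, as log2 signal minus the mean of the 9 arrays, with genes ordered by role and by genotype difference and columns by group and array number. The darkest red cells lie in wild-type arrays 2 and 3 and the darkest blue ones in array 3 of the sufficient group labelled Lrat-/-, while wild-type array 1 resembles the 6 arrays labelled Lrat-/-, and most M-region genes show little contrast.

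The classical class I heavy chains present most cellular peptides. H2-K1 had a log2 signal of 9.96, 9.96 and 9.60 in deficient-diet arrays labelled Lrat-/-, 9.63, 9.75 and 9.58 in those on the sufficient diet, and 9.90, 10.99 and 10.56 in wild-type arrays. Wild-type array 1 overlapped the deficient group but not the sufficient group. The genotype difference was -0.83 ± 0.23 (SE, adjusted p = 0.577), which is 1.77-fold lower, and it was -0.57 without wild-type array 2. H2-D1 had 10.47, 10.38 and 10.42 in deficient-diet arrays labelled Lrat-/-, 10.20, 10.41 and 10.28 in those on the sufficient diet, and 10.23, 11.43 and 10.93 in wild-type arrays. Here wild-type array 1 was inside the range of the sufficient group labelled Lrat-/- and below all 3 deficient arrays. Its genotype difference was -0.57 ± 0.24 (adjusted p = 0.865) and -0.29 without wild-type array 2.

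The Q region encodes further class I molecules, among them the Qa-2 antigens, which are less variable than the classical chains. The widest difference of any member was that of H2-Q6, with 8.95, 8.91 and 8.52 in deficient-diet arrays labelled Lrat-/-, 8.42, 8.51 and 7.74 in those on the sufficient diet, and 8.91, 10.81 and 9.76 in wild-type arrays. The sufficient group did not overlap wild type, and the deficient group did through wild-type array 1. Its genotype difference was -1.60 ± 0.41 (adjusted p = 0.490), 3.03-fold lower, and -1.11 without wild-type array 2. H2-Q4, listed under the symbol H2-gs10, had 8.0, 7.90 and 7.62 in the deficient group, 7.63, 7.62 and 7.09 in the sufficient group labelled Lrat-/-, and 7.88, 9.15 and 8.23 in wild type. It showed the same order of arrays, with a genotype difference of -0.97 ± 0.29 (adjusted p = 0.642) and -0.61 without wild-type array 2. H2-Q8 had 8.06, 7.89 and 7.67 in the deficient group, 7.89, 7.83 and 7.45 in the sufficient group labelled Lrat-/-, and 8.06, 8.86 and 8.51 in wild type, for a difference of -0.75 ± 0.20 (adjusted p = 0.519). H2-Q7 differed by -0.72 and H2-Q1 by -0.14, or by -0.27 on its other probe set. The mean of H2-Q2 was 7.03 in the sufficient group labelled Lrat-/- and 7.13 in wild type. H2-Q10, under the negative controls, had 5.47 and 5.43 in that order. The median over the 7 Q genes was -0.72, or -0.43 without wild-type array 2.

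H2-T24, a nonclassical class I gene of the T region, had the lowest adjusted p of the members. Its log2 signal was 7.39, 7.26 and 7.26 in deficient-diet arrays labelled Lrat-/-, 7.47, 7.25 and 7.01 in those on the sufficient diet, and 7.90, 8.34 and 7.81 in wild-type arrays. All 3 wild-type arrays were above all 6 others, which was the case for 3 of 54 members and 2.22% of all genes, the other 2 being Tap2 and H2-Eb2. The genotype difference was -0.77 ± 0.15 (adjusted p = 0.253), 1.71-fold lower, and it was -0.61 without wild-type array 2. By array number it was -0.43, -1.09 and -0.80. The authors' deposited table gives H2-T24 a ratio of 0.589 with p = 0.00164 for the same comparison. The other T genes differed less: H2-t9, which RefSeq lists as Gm7030, by -0.58, H2-T23 by -0.35, H2-T10 by -0.27 and H2-Bl by -0.08. The mean of H2-T22 was 8.64 in the sufficient group labelled Lrat-/- and 8.79 in wild type, and H2-T3 had 6.28 in both. By array number H2-T22 differed by 0.29, -0.63 and -0.12. On its other probe set H2-t9 differed by -0.31.

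H2-T23 encodes Qa-1, which presents leader peptides of other class I chains to natural killer cell receptors. It had 7.59, 7.44 and 7.44 in deficient-diet arrays labelled Lrat-/-, 7.42, 7.36 and 7.11 in those on the sufficient diet, and 7.21, 8.13 and 7.61 in wild-type arrays. Wild-type array 1 was among the lowest of the 9, and the genotype difference of -0.35 ± 0.20 (adjusted p = 0.920) was -0.11 without wild-type array 2.

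Differences in the M region were mostly small, as were those of H2-T3, H2-Bl, H2-Q2 and H2-Q10. The M region holds the H2-M3 gene, whose product presents formylated peptides, and the H2-M1 and H2-M10 genes, known from the vomeronasal organ. Over its 12 genes the median genotype difference was -0.06, with a range of -0.31 (H2-M10.6) to 0.13 (H2-M10.5). At an unadjusted p under 0.05, 0 of 12 were lower or higher, against 3% and 2.71% of all genes. In a list of 12 genes a count of 0 is near those shares. Without overlap 2 of the 12 were lower, against 4.02% of all genes. The median was -0.10 without wild-type array 1 and -0.0016 without wild-type array 3. H2-M3 had 7.37, 7.32 and 7.16 in deficient-diet arrays labelled Lrat-/-, 7.32, 7.27 and 6.99 in those on the sufficient diet, and 7.33, 7.39 and 7.33 in wild-type arrays. Wild-type array 1 was just above the highest array of the sufficient group labelled Lrat-/-, and the difference was -0.15 ± 0.10 (adjusted p = 0.943). Of the 12 genes, 6 had a mean under that of the negative controls, where an array has little room to show a decrease.

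**Figure D2:**
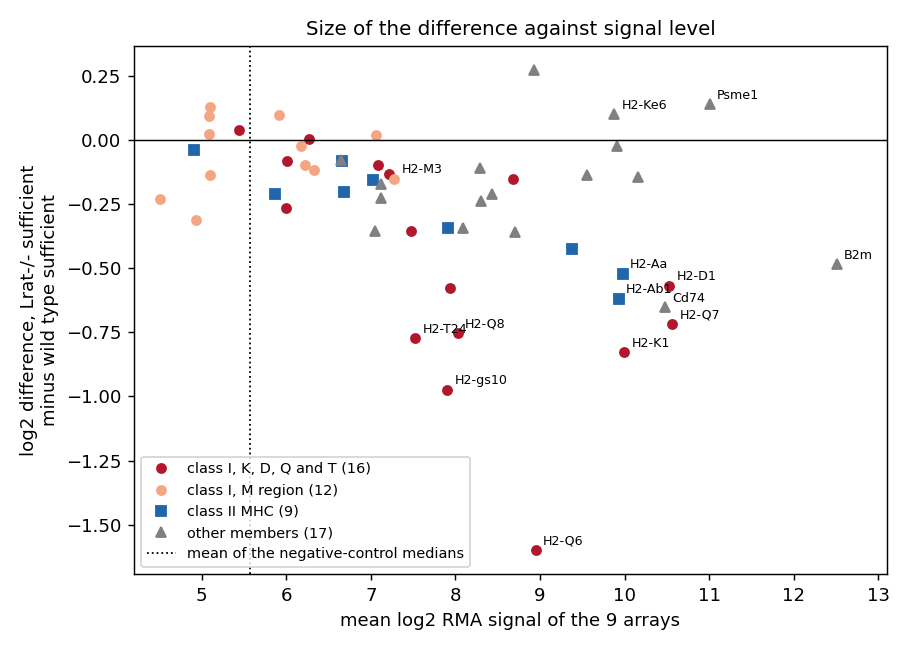
Genotype difference (log2, sufficient-diet arrays labelled Lrat-/- minus wild type) of each of the 54 members against its mean log2 signal over 9 arrays, with the average negative-control median as a dotted line. The members left of the dotted line lie between -0.31 and 0.13, and the lowest points are H2-Q6 at -1.60 and H2-gs10 at -0.97.

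Genes that assemble class I with its peptide ran in the same direction as most heavy chains. All 6 had a lower mean in sufficient-diet arrays labelled Lrat-/-, against 49% of all genes, with a median of -0.19. At an unadjusted p under 0.05, 2 were lower (B2m and Tap2), against 3% of all genes. Without wild-type array 2, 0 of the 6 were, against 2.53%. B2m had 12.48, 12.56 and 12.35 in the deficient group, 12.31, 12.53 and 12.02 in the sufficient group labelled Lrat-/-, and 12.52, 13.06 and 12.73 in wild type. Wild-type array 1 was just below the highest array of each other group, and the genotype difference was -0.49 ± 0.16 (adjusted p = 0.682), 1.40-fold lower. Tap1 had 8.0, 7.99 and 7.99 in the deficient group, 7.95, 7.97 and 7.99 in the sufficient group labelled Lrat-/-, and 7.78, 8.70 and 8.46 in wild type.

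For Tap1 the 6 arrays labelled Lrat-/- lay close together, and the wild-type arrays held both its lowest and its 2 highest values. One identical value stands in 3 of the 9 arrays, so the small spread of Tap1 is uncertain. Its genotype difference was -0.34 ± 0.19 (adjusted p = 0.918), -0.15 without wild-type array 2 and -0.61 without wild-type array 1. Tap2, the other transporter subunit, had 8.39, 8.42 and 8.42 in the deficient group, 8.30, 8.42 and 8.28 in the sufficient group labelled Lrat-/-, and 8.44, 8.59 and 8.6 in wild type, without overlap, for a difference of -0.21 ± 0.07 (adjusted p = 0.733). Tapbp (tapasin) had 10.17, 10.14 and 9.99 in the deficient group, 10.05, 10.13 and 10.18 in the sufficient group labelled Lrat-/-, and 10.10, 10.38 and 10.31 in wild type. Erap1, which trims peptides in the endoplasmic reticulum, had 8.32, 8.34 and 8.11 in the deficient group, 8.34, 8.25 and 8.20 in the sufficient group labelled Lrat-/-, and 8.41, 8.26 and 8.45 in wild type. Both overlapped between groups, with differences of -0.14 for Tapbp and -0.11 for Erap1, and the tapasin relative Tapbpl differed by -0.17. Leaving out wild-type array 2 gave -0.09 for Tapbp and -0.05 for Tapbpl.

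The immunoproteasome replaces the catalytic subunits of the standard proteasome with Psmb8, Psmb9 and Psmb10. All 3 were lower at an unadjusted p under 0.05, against 3% of all genes. Psmb10 had 8.57, 8.64 and 8.79 in deficient-diet arrays labelled Lrat-/-, 8.42, 8.68 and 8.54 in those on the sufficient diet, and 8.71, 9.13 and 8.88 in wild-type arrays. Psmb8 had 7.03, 6.83 and 6.94 in the deficient group, 6.82, 6.98 and 6.98 in the sufficient group labelled Lrat-/-, and 6.95, 7.63 and 7.27 in wild type. Psmb9 had 8.30, 8.29 and 8.30 in the deficient group, 8.26, 8.29 and 8.03 in the sufficient group labelled Lrat-/-, and 8.28, 8.53 and 8.48 in wild type. Psmb10 did not overlap between the sufficient groups, while for Psmb8 and Psmb9 wild-type array 1 lay among the arrays labelled Lrat-/-. The genotype differences were -0.36 ± 0.12 for Psmb10 (adjusted p = 0.695), -0.36 ± 0.15 for Psmb8 (0.865) and -0.24 ± 0.09 for Psmb9 (0.812). Without wild-type array 2 none of the 3 was lower at an unadjusted p under 0.05 (0 of the 5 genes of the list), against 2.53% of all genes. In that fit Psmb8 differed by -0.18.

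The proteasome activator differed less. Psme1, its alpha subunit, had 11.19, 11.09 and 11.10 in the deficient group, 10.87, 11.05 and 11.12 in the sufficient group labelled Lrat-/-, and 10.58, 11.10 and 10.95 in wild type. Its lowest value was that of wild-type array 1, and the genotype difference was 0.14 ± 0.13 (adjusted p = 0.946), or -0.0092 without that array. Psme2, the beta subunit, differed by -0.02, or 0.10 without wild-type array 2. Its other probe set, with a lower mean signal, differed by -0.18. The standard proteasome, a list of 17 other subunits and helpers, had 7 genes lower and 10 higher, with a median of 0.02. At an unadjusted p under 0.05, 0 were lower, against 3% of all genes, and 1 was higher, against 2.71%.

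The transactivators of both classes had a lower mean in sufficient-diet arrays labelled Lrat-/-, without passing the test. Nlrc5 had 9.65, 9.35 and 9.48 in deficient-diet arrays labelled Lrat-/-, 9.58, 9.66 and 9.31 in those on the sufficient diet, and 9.51, 9.57 and 9.88 in wild-type arrays. The groups overlapped, with a genotype difference of -0.14 ± 0.13 (adjusted p = 0.946) that was 0.078 without the arrays numbered 3. Nlrc5 has 19 probe sets on the array, and all 19 were lower, by a median of -0.17 and between -0.58 and -0.05. Of these, 2 had an unadjusted p under 0.05, where 3% of all genes were lower at such a p. The 19 probe sets read 1 gene in the same 9 arrays and are not independent, and that share is per gene. Ciita had 6.64, 6.64 and 6.64 in the deficient group, 6.64, 6.64 and 6.52 in the sufficient group labelled Lrat-/-, and 6.64, 6.64 and 6.75 in wild type. One identical value stands in 5 of its 9 arrays, so this probe set hardly resolves differences, and its genotype difference was -0.08 ± 0.07 (adjusted p = 0.946).

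Class II genes form alpha and beta chains (H2-Aa, H2-Ab1, H2-Eb1) and the H2-DM and H2-O molecules that edit their peptides. All 9 had a lower mean in sufficient-diet arrays labelled Lrat-/-, against 49% of all genes. At an unadjusted p under 0.05, 5 were lower, against 3% of all genes, and 3 without wild-type array 2, against 2.53%. H2-Ab1 had 9.87, 10.10 and 9.74 in the deficient group, 9.58, 9.94 and 9.38 in the sufficient group labelled Lrat-/-, and 9.87, 10.61 and 10.29 in wild type. H2-Aa had 9.91, 10.002 and 9.86 in the deficient group, 9.59, 10.05 and 9.59 in the sufficient group labelled Lrat-/-, and 9.95, 10.58 and 10.28 in wild type. H2-Eb1 had 9.38, 9.38 and 9.18 in the deficient group, 9.12, 9.51 and 8.97 in the sufficient group labelled Lrat-/-, and 9.37, 9.91 and 9.60 in wild type. In all 3 chains array 2 of the sufficient group labelled Lrat-/- was higher than wild-type array 1, and arrays 2 and 3 of wild type were the highest. The genotype differences were -0.62 ± 0.20 for H2-Ab1 (adjusted p = 0.668), -0.52 ± 0.17 for H2-Aa (0.676) and -0.43 ± 0.16 for H2-Eb1 (0.808), and without wild-type array 2 they were -0.44, -0.37 and -0.29.

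Cd74 is the invariant chain that escorts class II to the lysosome. It had 10.50, 10.59 and 10.12 in deficient-diet arrays labelled Lrat-/-, 10.09, 10.65 and 9.79 in those on the sufficient diet, and 10.56, 11.15 and 10.79 in wild-type arrays. Its order of arrays was that of the class II chains, with a genotype difference of -0.65 ± 0.23 (adjusted p = 0.739). H2-DMa, which helps to exchange peptides, had 7.80, 7.97 and 7.76 in the deficient group, 7.68, 7.96 and 7.68 in the sufficient group labelled Lrat-/-, and 7.92, 8.44 and 7.99 in wild type. Ctss, the cathepsin that cuts Cd74, had 6.99, 7.19 and 7.10 in the deficient group, 6.93, 7.15 and 6.96 in the sufficient group labelled Lrat-/-, and 7.12, 7.50 and 7.10 in wild type. Both overlapped between groups, with differences of -0.34 ± 0.14 (adjusted p = 0.862) for H2-DMa and -0.23 ± 0.12 (adjusted p = 0.911) for Ctss. These were -0.18 for H2-DMa and -0.09 for Ctss without wild-type array 2. H2-Ob differed by -0.20 and H2-DMb2 by -0.16.

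H2-Eb2 was the class II gene without overlap, at a low level. Its log2 signal was 5.79, 5.67 and 5.72 in deficient-diet arrays labelled Lrat-/-, 5.88, 5.72 and 5.88 in those on the sufficient diet, and 6.02, 6.05 and 6.03 in wild-type arrays. The difference of -0.21 ± 0.07 (adjusted p = 0.727) hardly moved without wild-type array 2 (-0.20). H2-Ke2, a prefoldin subunit, and H2-Ke6, a steroid dehydrogenase, lie in the region without a part in presentation and ran the other way, by 0.27 and 0.10.

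**Figure D3:**
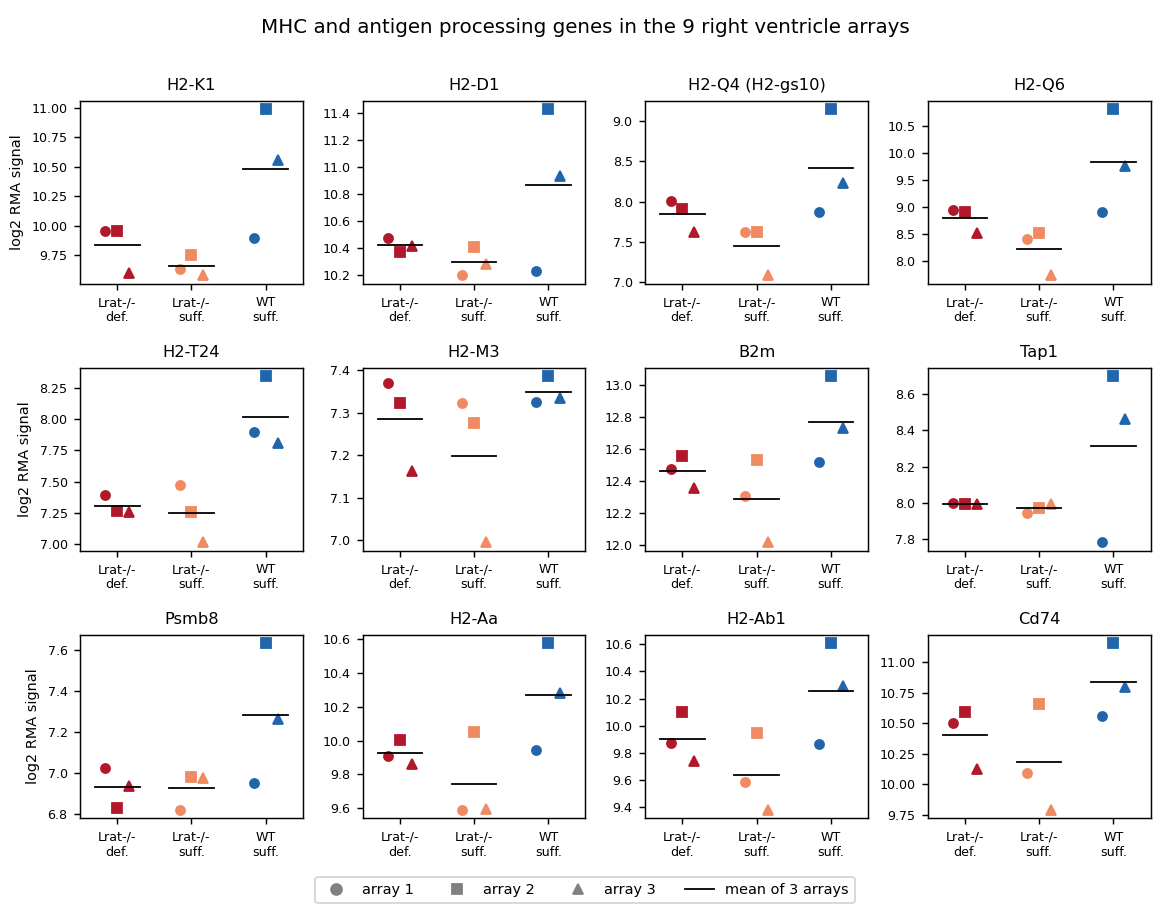
Log2 signal of 12 members in each array, by group, with a symbol for each array number and a line at the group mean. Wild-type arrays 2 and 3 are the highest in 10 of the 12 panels, H2-T24 has all 3 wild-type arrays above the other 6, and H2-M3 shows the narrowest spread.

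**Figure D4:**
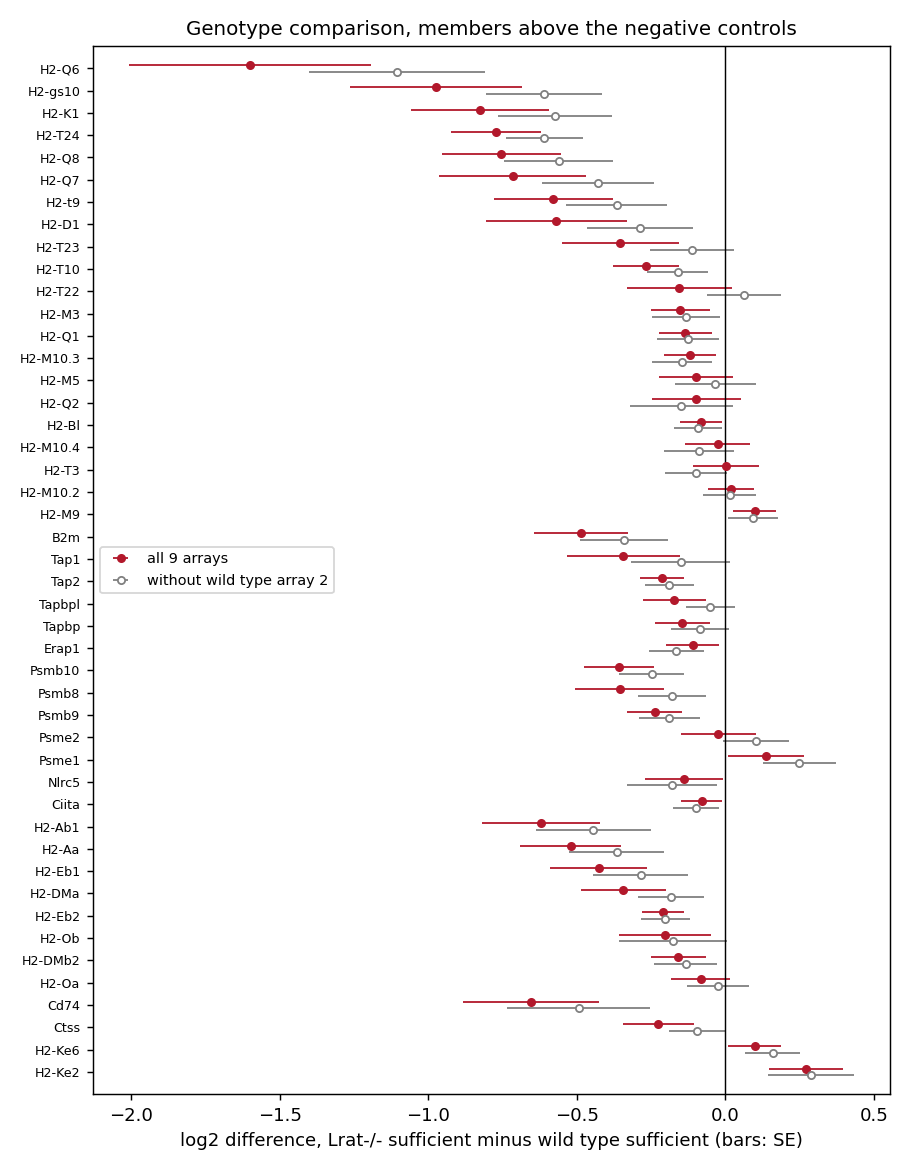
Genotype difference (log2, sufficient-diet arrays labelled Lrat-/- minus wild type, with its SE) of the 46 members whose mean is above the negative controls, with all 9 arrays and without wild-type array 2. Leaving that array out moves H2-Q6 to -1.11 and H2-K1 to -0.57, and 5 members lie above 0 either way (Psme1, H2-Ke2, H2-Ke6, H2-M9 and H2-M10.2).

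The diet comparison asks what differs between the deficient and the sufficient diet within the arrays labelled Lrat-/-. Members tended to be slightly higher on the deficient diet. The class I mean was 6.87 to 6.89 on the deficient diet and 6.77 to 6.85 on the sufficient diet, a difference of 0.06 without overlap. The class II mean was 7.52 to 7.60 and 7.37 to 7.59, a difference of 0.09 with overlap. No member was called, and no gene at all (0%). At an unadjusted limma p under 0.05, 1 of 54 members was lower, H2-M9, against 0.869% of all genes, and 0 were higher, against 0.444%. A lower mean by any amount was seen in 20 of 54, against 54.7%. The median log2 difference was 0.03 over class I and 0.07 over class II, against -0.01 over all genes. When 1 array was left out the class II median ran between 0.02 (without array 2 of the deficient group) and 0.16 (without array 2 of the sufficient group), and that of class I between -0.0069 and 0.07. This comparison shares its sufficient arrays with the genotype comparison, so a low array there raises one and lowers the other.

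Among class I genes H2-Q6 differed by 0.57 ± 0.41 and H2-gs10 by 0.40 ± 0.29 with diet, and H2-T24 by 0.06, which was -0.058 without array 3 of the sufficient group. H2-M9 had 5.77, 5.91 and 5.83 in the deficient group, 6.04, 5.91 and 6.08 in the sufficient group labelled Lrat-/-, and 5.91, 5.90 and 5.92 in wild type, for a diet difference of -0.17 ± 0.07. H2-M10.5 had 4.73, 5.07 and 5.17 in the deficient group, 4.99, 5.25 and 5.42 in the sufficient group labelled Lrat-/-, and 5.03, 5.0 and 5.25 in wild type, all under the negative controls. Its diet difference was -0.23 ± 0.14.

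Of class II, 8 of 9 genes had a higher mean on the deficient diet, while 54.7% of all genes had a lower one. H2-Ab1 differed by 0.27 ± 0.20, H2-Aa by 0.18 ± 0.17 and Cd74 by 0.22 ± 0.23, with SEs of nearly the same size. H2-Eb2 ran the other way, at -0.10. H2-Ea had 4.83, 4.87 and 5.32 in the deficient group, 4.78, 4.88 and 4.87 in the sufficient group labelled Lrat-/-, and 4.88, 4.87 and 4.90 in wild type. It lay under the negative controls in each group, with array 3 of the deficient group the highest of the 9, and differed by 0.16. Psme2 was higher by 0.19 ± 0.13 and B2m by 0.18 ± 0.16.

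Genotype and diet labels together were compared next, deficient arrays labelled Lrat-/- against wild type. No member was called, while 15 genes were in all (0.0679%). At an unadjusted p under 0.05, 8 of 54 members were lower, against 3.35% of all genes, and 0 were higher, against 2.74%. A complete separation downwards was seen in 3 members, against 4.88% of all genes, and 48 of 54 had a lower mean, against 54.3%. The median was -0.13 over class I, -0.27 over class II and -0.01 over all genes. These values moved with single arrays. Without wild-type array 2, 2 members were lower at an unadjusted p under 0.05, against 2.73% of all genes, and 2 were higher, against 3.18%, with a class II median of -0.12. Without wild-type array 1, 25 were lower, against 4.6%, and without wild-type array 3, 3 were, against 3.97%, with a class I median of -0.09. Leaving out array 2 or 3 of the deficient group gave 4 and 3 lower members, against 2.39% and 2.51%, and leaving out array 3 of the sufficient group labelled Lrat-/- gave 5, against 3.46%. H2-T24 differed by -0.71 ± 0.15 (adjusted p = 0.277), H2-Eb2 by -0.31 ± 0.07 (0.340), H2-Q8 by -0.60 ± 0.20 (0.652) and H2-K1 by -0.64 ± 0.23 (0.706).

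All 6 arrays labelled Lrat-/- were also set against wild type, which reuses the same wild-type arrays. No member was called, and 19 genes in all (0.086%), or 32 with the array number as a block. At an unadjusted p under 0.05, 20 of 54 members were lower, against 4.02% of all genes, and 0 were higher, against 3.4%. A lower mean by any amount was seen in 44 of 54, against 51.2%. The median was -0.15 over class I and -0.26 over class II, against 0.00 over all genes. Without wild-type array 2, 7 members were lower at an unadjusted p under 0.05, against 3.07% of all genes, and 1 was higher, against 3.89%, and the class II median was -0.15. Without wild-type array 1 there were 27 lower, against 5.16%, and without wild-type array 3 there were 11, against 4.64%. H2-T24 differed by -0.74 ± 0.13 (adjusted p = 0.108), H2-Eb2 by -0.26 ± 0.06 (0.262), H2-Q8 by -0.68 ± 0.17 (0.314) and H2-Q6 by -1.32 ± 0.35 (0.335). Leaving out wild-type array 1 brought 2 members past the threshold in this comparison, H2-K1 at -1.03 (adjusted p = 0.0409) and Tap1 at -0.60 (adjusted p = 0.0401), among 47 genes in all (0.213%). With all arrays they stood at -0.74 (adjusted p = 0.345) and -0.33 (adjusted p = 0.722). For Tap1 the small spread behind its call is uncertain, since one identical value stands in 3 of the 9 arrays.

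Genes upstream and downstream in the same pathway were described in the genotype comparison, and none of the genes of these lists was called. Over all genes 0.0362% were called, 49% were lower by any amount and 3% were lower at an unadjusted p under 0.05. Of 11 GTPases that interferon gamma induces in mice, 11 were lower, 7 at an unadjusted p under 0.05, with a median of -0.48. Without wild-type array 2 the median was -0.25 and 2 were lower at such a p, against 2.53% of all genes. Their mean log2 signal was 7.92, 7.78 and 7.65 in deficient-diet arrays labelled Lrat-/-, 7.73, 7.50 and 7.35 in those on the sufficient diet, and 7.62, 8.53 and 8.16 in wild-type arrays, the same order of wild-type arrays as class I. Tgtp1 differed by -1.18 and Gbp4 by -0.90. Of 14 genes of interferon gamma signalling, 11 were lower with a median of -0.14 (-0.07 without wild-type array 2) and 0 at an unadjusted p under 0.05. Among them Irf1, a transcription factor that interferon gamma induces, differed by -0.24, while Ifng itself, near the negative controls at 5.83, differed by 0.26.

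Other steps of presentation differed little. The share of all genes with a lower mean, 49%, applies to these lists too. Chaperones of class I folding had 6 of 8 genes lower and a median of -0.05, and the lysosomal proteases and partners of class II 5 of 8 and -0.04. Those medians were -0.0017 for the chaperones and 0.05 for the class II partners without wild-type array 2. Ctsh, a lysosomal cathepsin, was higher by 0.48. The factors that bind the MHC promoters had 7 of 11 lower with a median of -0.04, among them Rela at -0.26. Class I-like genes outside the MHC had 3 of 11 lower and a median of 0.06, with a range of -0.40 to 0.23. Without wild-type array 1, 5 of the 11 were lower, against 51.1% of all genes, and without wild-type array 2, 2 were, against 49.8%. Of the 11, 7 had a mean above the negative controls.

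Markers of cells that carry MHC molecules were read beside these results. Over all genes 49% were lower, or 49.8% without wild-type array 2. Of 8 general leukocyte markers 7 were lower, with a median of -0.13, and their mean was 7.81 to 7.98 in sufficient-diet arrays labelled Lrat-/- against 7.94 to 8.24 in wild type, with wild-type array 2 the highest. Of 14 macrophage markers 12 were lower, with a median of -0.17, a mean of 8.15 to 8.33 in arrays labelled Lrat-/- and 8.31 to 8.55 in wild type, again with wild-type array 2 the highest. Without that array the medians were -0.08 for the leukocyte markers (6 of 8 lower) and -0.08 for the macrophage markers (9 of 14 lower). At an unadjusted p under 0.05, 1 leukocyte and 2 macrophage markers were lower with all arrays, against 3% of all genes. Emr1, the gene of the macrophage antigen F4/80, differed by -0.40, and Ptprc (CD45) by -0.11.

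Fibroblasts and endothelium can carry class I as well. The counts below stand beside the same 49% of all genes that were lower. Of 10 fibroblast markers 10 were lower, with a median of -0.24, a mean of 8.94 to 9.0 in sufficient-diet arrays labelled Lrat-/- and 9.13 to 9.35 in wild type. Of 10 endothelial markers 9 were lower, with a median of -0.16, a mean of 9.71 to 9.96 in arrays labelled Lrat-/- and 9.93 to 10.10 in wild type. Without wild-type array 2, 10 of 10 fibroblast and 8 of 10 endothelial markers were lower, against 49.8% of all genes. The medians were then -0.21 and -0.20. At an unadjusted p under 0.05, 5 fibroblast and 3 endothelial markers were lower with all arrays, against 3% of all genes. Without wild-type array 2, 3 and 2 were, against 2.53%. Dendritic cell markers had 5 of 10 lower and a median of -0.04, with a mean of 6.56 to 6.69 in arrays labelled Lrat-/- and 6.62 to 6.87 in wild type, B cell markers 4 of 9 and 0.03 (5.66 to 5.97 and 5.67 to 5.86), and T and NK cell markers 10 of 14 and -0.07 (5.92 to 5.98 and 5.96 to 6.17). Neutrophil and mast cell markers had 3 of 8 lower and a median of 0.02. At such a p, 2 dendritic cell, 1 B cell, 2 T and NK cell and 0 neutrophil and mast cell markers were lower, against 3%. The B cell gene Cd79a had a mean signal of 5.53, beneath the negative controls. The part of these cell types in the MHC difference was not tested.

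**Figure D5:**
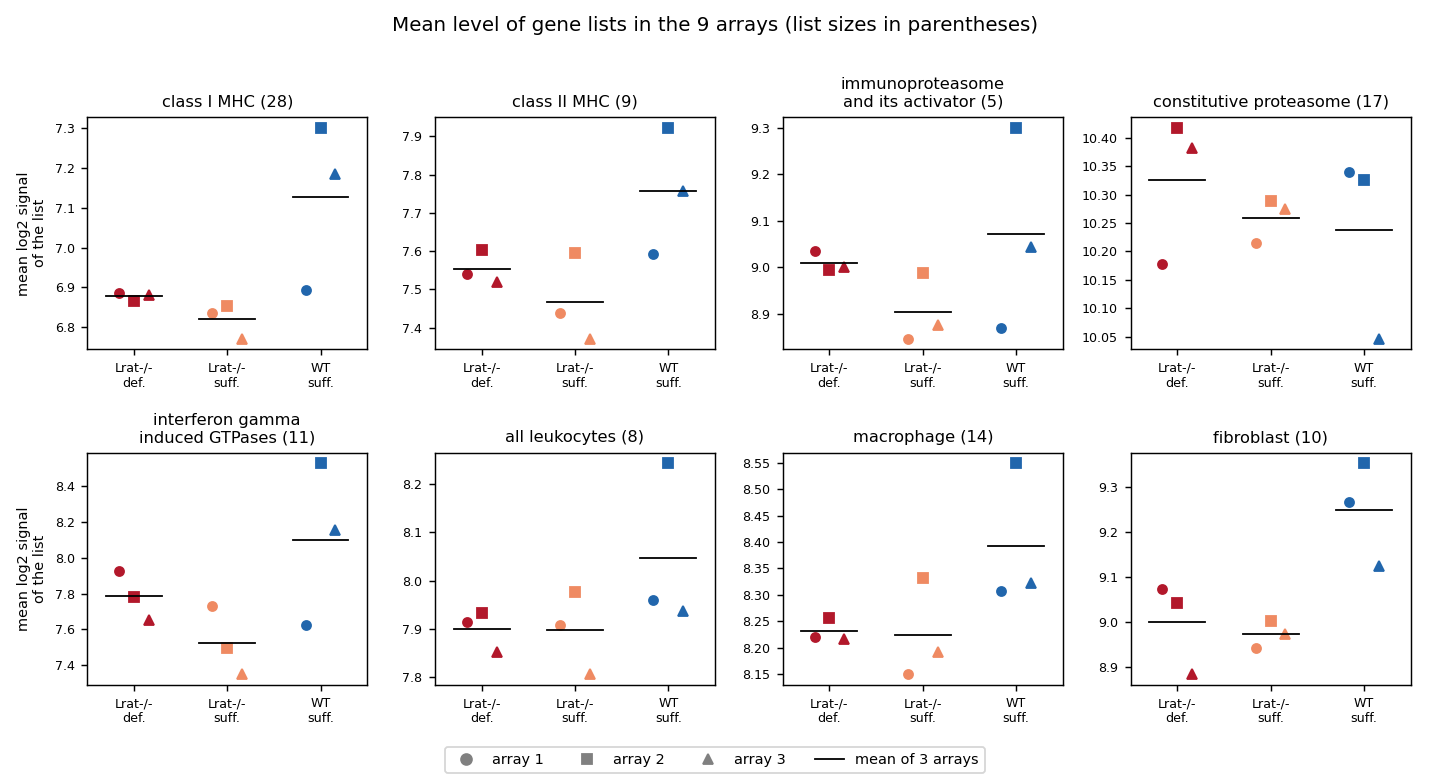
Mean log2 signal of 8 gene lists in each array, by group, with a symbol for each array number and a line at the group mean. Class I, class II, the immunoproteasome list and the interferon gamma induced GTPases have wild-type arrays 2 and 3 on top, leukocyte and macrophage markers have wild-type array 2 alone far above the rest, and fibroblast markers have all 3 wild-type arrays above the other 6.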

How the data were processed

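Right ventricle RNA of 9 male mouse samples was measured on Affymetrix whole-transcript arrays. The deposited series table holds the authors' log2 RMA signals, and RMA, R 3.1.2 and the mm8 build are named per the submitters' processing notes. The authors' deposited annotated table gave gene symbols, and its 9 further columns of values, whose names match no sample, were not used. The authors' deposited comparison table gave their ratios and p-values, with scan date as a factor per the file headers. The arrays of each scan date are not given in the sources used here.

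Of 35556 probe sets, 25465 had 1 symbol. The probe set with the highest mean was kept for each of 22088 genes. limma 3.58.1 in R 4.3.3 was fitted to all 9 arrays with 3 group means, with 6 residual and 3.34 prior degrees of freedom and Benjamini-Hochberg adjustment over all genes. In data simulated for the genotype comparison over 22088 genes, 86% of genes with a log2 change of 1 and 48% of those with 0.5 were called. The simulated arrays were independent, and each gene had the same spread in every group. In the data same-numbered arrays deviated together, and the class I mean had an SD of 0.21 in wild type and 0.01 and 0.04 in the other groups. These percentages are therefore not the share of members that would be called. Tables were made with pandas 2.3.3 under Python 3.11.15 and figures with matplotlib 3.10.9. RefSeq GRCm38.p6 supplied current names and promoters.

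The members, lists, named genes and tests were chosen with earlier results of these data known. Named with every value were the genes of a written list, any called member and the 3 members of each class with the lowest p in a comparison. Other members are given by differences or ranges. Several comparisons share arrays, and no p was computed for a list.

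The labels number the arrays 1 to 3 in each group. With group means removed, all 9 same-number pairs correlated positively across genes (r of 0.138 to 0.391), against -0.366 to 0.223 for other pairs. The numbers were therefore taken as pairs, a pairing read from the data and not stated in the labels, and fitted as a block in an alternative. Other alternatives were leaving out each array, leaving out the arrays numbered 3 or blocking on them, array weights, a variance trend, recentring, a filter on dim genes, other choices of probe set and updated symbols.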

Additional observations from a re-analysis of the deposited data

How the results depend on the processing

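For 70 reported gene differences under the other settings, 1307 of 1316 values kept their direction and their side of the threshold. Of the 16 counts and class medians, 271 of 296 alternative values stayed within the spread or within 1.5 times the count. Each group holds an array of each number, so the replicate block cannot move a group difference. The class medians of the genotype comparison, -0.14 for class I and -0.21 for class II, were thus fixed under it and test nothing. The block can move the spread and the p-values, and it changed no call of a member. The counts above include differences fixed in this way, among them those between groups that a left-out array does not belong to. Under the block the count of all genes called was 10 in the genotype comparison, 20 in the combined comparison and 32 over both diets, against 8, 15 and 19 without it.

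Counts over all genes moved most. Leaving out 1 array gave 7 to 27 calls in the genotype comparison, 7 to 32 in the combined comparison and 9 to 47 over both diets. Without the arrays numbered 3 the counts were 2, 3 and 6. Array weights gave 2 calls with diet, 32 in the combined comparison and 29 over both diets. Over both diets there were also 38 calls with the arrays numbered 3 as a block, 34 after quantile normalization again and 29 with every probe set apart. Calls of members over both diets were 0 to 2 when 1 array was left out, the 2 being H2-K1 and Tap1 without wild-type array 1.

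The class II median of the genotype comparison was -0.34 over genes with a mean log2 signal of 6 or more, where fewer dim genes remain. The combined class II median was -0.32 to -0.12 when 1 array was left out. The class I diet median was -0.01 to 0.07 when 1 array was left out, so its sign is not settled. Reversed signs, none of them called, were Nlrc5 at 0.078 without the arrays numbered 3, Psme1 at -0.0092 without wild-type array 1 (to 0.25 when another array was left out), Psme2 at 0.10 without wild-type array 2 and 0.04 without array 3 of the sufficient group labelled Lrat-/- (from -0.14 when another array was left out), and with diet H2-Eb1 at -0.0096 and H2-T24 at -0.058 without array 3 of the sufficient group labelled Lrat-/- (to 0.26 and 0.17 when another array was left out), and H2-T24 at -0.034 without the arrays numbered 3. The cause was not tested. Signals near the negative controls limit what the M-region genes and H2-Ea can show.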

Other observations

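Genes that lie between the outermost H2- genes in the RefSeq order and are not members gave a comparison within the region. They were taken by their order alone and were not screened for a part in presentation. Of 134 such genes, 79 had a lower mean in sufficient-diet arrays labelled Lrat-/- than in wild type, against 49% of all genes. This count moved with single arrays. Without wild-type array 2 it was 69, against 49.8% of all genes, with a median of -0.004. Without wild-type array 1 it was 93, against 51.1%. With all arrays 5 were lower at an unadjusted limma p under 0.05, against 3% of all genes, and the median log2 difference was -0.02. The lowest p-values were those of Ppp1r11, a phosphatase inhibitor (-0.52, adjusted p = 0.249), Cdsn, the corneodesmosin gene (-0.40, adjusted p = 0.508), and the complement gene C4b (-0.85, adjusted p = 0.523). None was called.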
